A study of Mus musculus with 14 samples.

Results

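The microRNA (miRNA) content of the exosomes that control macrophages released was compared with that of lysates of control macrophages. Libraries were taken by their titles and treatment label: all that carry WT in the title and are labelled as wild-type controls, 4 of extracellular exosomes and 3 of cell lysates, which are 7 of the 14 libraries of the series. The other 7 (4 exosome, 3 lysate) came from macrophages that the titles mark with IL4, a cytokine that drives macrophages towards a tissue-repairing state, and served here as a second set of libraries for the same comparison. All 14 came from mouse bone marrow, with excised bone given as the tissue. Strain, age, sex, the culture medium and the number of animals are not given in the labels, and a library of medium without cells was not analysed here. Whether a replicate was its own animal or culture is not stated, and p-values therefore speak only to the spread among libraries, part of which may be technical.

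MiRNAs are short RNAs, cut from hairpin precursors, that guide Argonaute proteins to messenger RNAs through their seed (bases 2 to 8) and lower the output of those messages. Each hairpin can give a 5p and a 3p mature arm, one of which is usually the more abundant. Exosomes are small vesicles that cells release by fusion of multivesicular bodies with the plasma membrane, and they carry miRNAs, some of them in proportions other than those of the cell. Macrophages are rich in miR-21a, miR-223, miR-142a and let-7, whereas some miRNAs are made almost entirely by other cells, such as miR-451a by red cell precursors, miR-122 by hepatocytes and miR-203 by keratinocytes.

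The sequences below belong to the miRNAs on which the comparison turned: those that set exosomes apart, their nearest relatives in lysates, and those that were lower in exosomes. They are RefSeq sequences on build GRCm38.p6, with the seed in capitals.
miR-451a: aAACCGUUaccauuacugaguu
miR-144-3p: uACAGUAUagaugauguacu
miR-126a-3p: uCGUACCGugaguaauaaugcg
miR-10b-5p: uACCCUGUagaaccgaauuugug
miR-10a-5p: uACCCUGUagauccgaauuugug
miR-100-5p: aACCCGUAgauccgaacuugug
miR-99a-5p: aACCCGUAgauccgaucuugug
miR-411-5p: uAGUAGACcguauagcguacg
miR-379-5p: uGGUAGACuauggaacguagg
miR-203-3p: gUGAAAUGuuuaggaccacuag
miR-203b-5p: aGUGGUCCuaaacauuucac
miR-21a-5p: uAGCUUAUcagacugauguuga
let-7f-5p: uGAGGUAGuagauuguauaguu
let-7a-5p: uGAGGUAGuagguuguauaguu
let-7i-5p: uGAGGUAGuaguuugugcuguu
miR-34a-5p: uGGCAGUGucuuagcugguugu
miR-362-5p: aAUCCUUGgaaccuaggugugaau

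Counted from 1 at the 5′ end of the first miRNA named, miR-10a-5p and miR-10b-5p differed by U12A, miR-99a-5p and miR-100-5p by U16A, and let-7f-5p and let-7a-5p by A12G. Each of these pairs shares its seed, so reads of one member with a single error could be counted as the other. Mature miR-451a lies at chr11:78073186-78073207 and miR-144-3p at chr11:78073047-78073066, both on the plus strand and outside other annotated genes. MiR-126a-3p, at chr2:26591402-26591423 (plus strand), lies in the endothelial gene Egfl7, where the annotation has an exon of one of its transcripts. MiR-10b-5p, at chr2:74726074-74726096 (plus strand), lies in introns of Hoxd3 and Hoxd4, and miR-10a-5p lies at chr11:96317186-96317208 (plus strand). MiR-411-5p (chr12:109710190-109710210) and miR-379-5p (chr12:109709065-109709085), both on the plus strand, belong to the imprinted Dlk1-Dio3 region. MiR-203-3p (chr12:112130927-112130948, plus strand) and miR-203b-5p (chr12:112130927-112130946, minus strand) come from opposite strands of the same bases and are reverse complements of each other over 20 bases. MiR-34a-5p lies at chr4:150068473-150068494 (plus strand), and miR-362-5p at chrX:7242019-7242042 (minus strand) in an intron of the chloride transporter gene Clcn5.

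Control exosome libraries held 28417, 54381, 199025 and 36576 miRNA counts in replicates 1 to 4, whose titles carry the dates 25 January, 16 March, 5 April and, in the year before, 29 December. Control lysates held 5750888, 6792079 and 5511688 counts in replicates 1 to 3, dated 23 January, 14 March and 21 March. Exosome and lysate dates were all different, so date and compartment cannot be told apart. A single count was worth 5.02 to 35.2 CPM (counts per 1000000 miRNA counts of the library) in exosomes and 0.147 to 0.181 CPM in lysates. Myeloid markers, the check of the cell type, took 22.6 to 29.95% of the reads in exosomes and 29.004 to 35.3% in lysates. Most of these reads were miR-21a-5p, with 74219 counts over the exosomes and 5216407 over the lysates. MiR-223-3p held far fewer, 7861 and 403119, so the check rests mainly on 1 line and is a weak one. A level in a bulk library is a share of that library's miRNA reads: less of a miRNA per vesicle or cell and fewer vesicles or cells that carry it cannot be told apart.

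Exosomes held a more even and more varied set of miRNAs than lysates. At an equal depth of 28417 counts, 353, 349, 339 and 313 lines of the table (a line is 1 mature miRNA, or several of identical sequence) were expected in exosome replicates 1 to 4, against 260, 244 and 248 in the lysates. The lowest exosome library thus lay above the highest lysate. The 10 most abundant lines took 54.7 ± 1.81% of reads in exosomes (SD, n = 4) and 70.0 ± 1.86% in lysates (n = 3). It took 58.5 ± 2.38 lines to hold 90% of exosome reads and 33.3 ± 2.08 lines to hold 90% of lysate reads. The effective number of lines, the exponential of the Shannon entropy, was 44.0 ± 2.78 against 22.8 ± 2.54. The groups did not overlap in any of these 4 measures, and each gave p = 0.0286 in an exact permutation test, two-sided (0.0286 after adjustment over the 4), the smallest p that 4 against 3 libraries allow. Without equal depth the order turned, since the deep lysates list more lines (exosomes minus lysates -470.9 lines).

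In the IL4 libraries the same 4 measures also did not overlap. Means there were 329 against 246 lines at equal depth, 61.3% against 72.8% of reads in the 10 most abundant lines, 50.8 against 31.3 lines for 90% of reads, and an effective number of 34.5 against 18.5 (exact permutation test, p = 0.0286 for each).

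Of 1250 lines, 338 had enough counts to be tested for a difference between exosomes and lysates with edgeR's quasi-likelihood test. The exosome libraries are so shallow that 1 or 2 counts could carry a line past the filter, which lay at 32.7 CPM in at least 3 libraries. With TMM factors, which scale libraries to the bulk of their lines, 172 lines differed (50.9% of those tested, Benjamini-Hochberg adjusted p at or under 0.05). Of these, 99 were higher in exosomes (29.3%) and 73 lower (21.6%). Scaled by library totals alone, 126 were higher (37.3%) and 16 lower (4.73%). The share of calls that were higher in exosomes was 57.6% by the first scaling and 88.7% by the second, because the second moves the median log2 fold change of all tested lines from -0.18 to 0.63, a shift of 0.80. All 99 lines called higher by TMM were also called higher by library totals, and 16 of the 73 called lower were also called lower. No line was called in opposite directions. The filter bears on these counts. Of the 338 lines, 126 did not reach 32.7 CPM in 3 of the 6 lysates and entered the test only with the help of exosome libraries, so a rise was largely fixed for them: 88 were called higher and 0 lower. Of the 212 that entered through lysates, 11 were called higher and 73 lower by TMM, and 28 higher and 16 lower by library totals. Fold changes below are by TMM unless stated, and a fall is therefore a fall relative to the bulk of the lines.

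**Figure D1:**
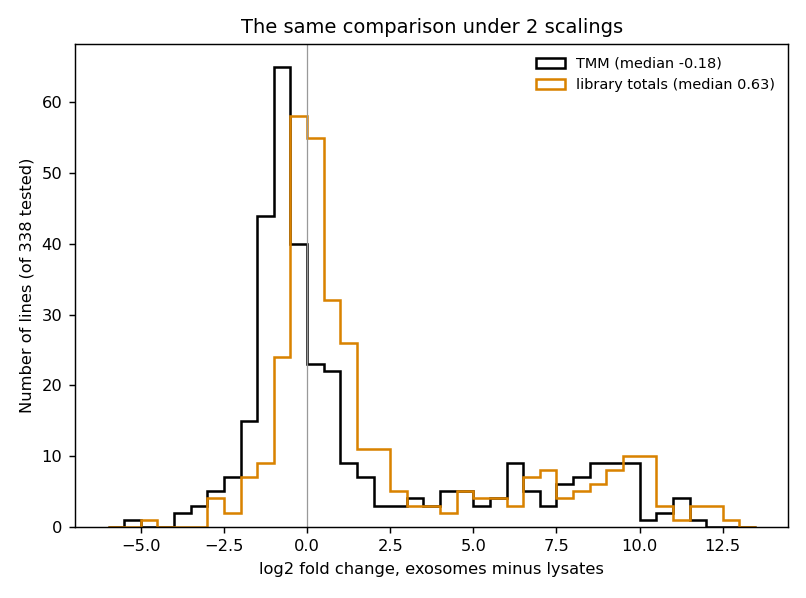
Histogram of log2 fold changes (x axis, exosomes minus lysates) of the 338 lines tested, in number of lines (y axis), scaled by TMM (black) and by library totals (orange). The main peak moves across 0 with the scaling (medians -0.18 and 0.63), whereas the separate shoulder of strong rises lies far to the right of 0 under both.

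The rises were large and the falls small. Of the 99 lines called higher, 82 had a fitted log2 fold change above 4, and 17 of the 73 called lower had one below -2. The 82 lines took 21.1, 14.5, 10.6 and 10.1% of reads in exosome replicates 1 to 4 but 0.0289, 0.0610 and 0.0683% in lysate replicates 1 to 3. Among the 148 lines with a mean of at least 100 CPM in lysates, 8 were called higher in exosomes and 59 lower. The levels of those 148 kept much of their order between compartments (Spearman's rho 0.88 across lines, which are not independent replicates), against 0.61 over all 338. In CPM, without any test, exosomes lay above lysates in every library for 92 lines (27.2%) and below for 35 (10.4%). Of the lines called higher, 72 were above in every library, and of those called lower, 35 were below in every library.

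**Figure D2:**
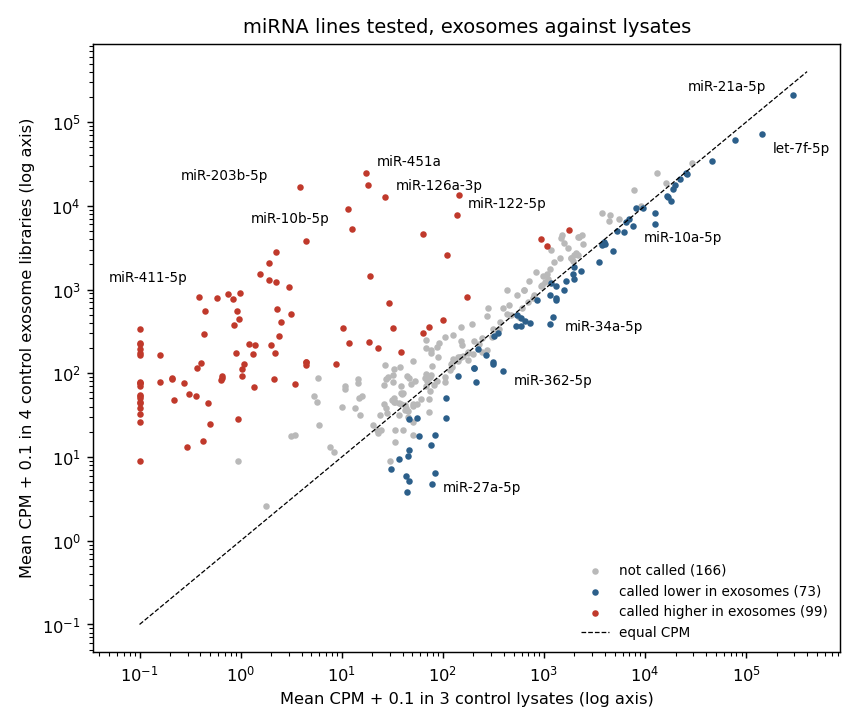
Mean level of each of the 338 tested lines in 3 control lysates (x axis) and 4 control exosome libraries (y axis), in CPM + 0.1 on log axes. Grey lines of the table were not called, blue (73) were called lower and red (99) higher in exosomes, and most red points lie at low lysate levels while abundant lysate miRNAs follow the dashed line of equal CPM.

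Erythroid miRNAs were prominent among the rises. MiR-451a, a red cell miRNA made without Dicer, stood at 31249, 24108, 24268 and 18154 CPM in exosome replicates 1 to 4 and at 23.6, 8.83 and 19.1 CPM in lysate replicates 1 to 3. It was the sixth most abundant line of exosomes, and every exosome library lay far above every lysate. Its log2 fold change was 9.74 (SE 0.56, 95% confidence interval 8.55 to 10.94, edgeR adjusted p = 1.35e-08). Its neighbour in the genome, miR-144-3p, ranged from 519 to 2252 CPM in exosomes and from 0.736 to 4.35 CPM in lysates (log2 8.50, SE 0.83, and 9.29 without lysate replicate 1). The miR-486a-5p/miR-486b-5p line, also of red cells, stood at 20973, 13277, 10124 and 9760 CPM against 133, 107 and 190 CPM (log2 5.78, SE 0.39). Of the 6 erythroid lines, 5 entered the test through exosome libraries, so that they were called higher was largely fixed by the filter. Among these 5, miR-486a-3p and miR-486b-3p held the same counts in all 14 libraries and are not independent lines. The miR-486a-5p/miR-486b-5p line entered through lysates. The erythroid lines together took 2.97 to 5.54% of exosome reads and 0.0123 to 0.0222% of lysate reads.

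Markers of other cells rose as well. MiR-126a-3p, of endothelium and platelets, stood at 5208, 22103, 18038 and 5714 CPM in exosomes and at 27.1, 29.4 and 23.6 CPM in lysates. Exosome replicates 2 and 3 were high and replicates 1 and 4 low, and all were above the lysates (log2 8.04, SE 0.67, edgeR adjusted p = 5.64e-07). Its other arm, miR-126a-5p, had a log2 fold change of 8.94 (SE 0.60). MiR-150-5p, of mature lymphocytes, stood at 1865, 1692, 1663 and 656 CPM against 9.39, 19.6 and 28.1 CPM (log2 5.401, SE 0.59). It was the 1 lymphocyte marker of 4 with enough counts to test. These 3 lines entered the test through exosome libraries.

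Of 7 stromal markers tested, 4 were higher and 2 lower in exosomes, against 29.3% and 21.6% of all lines, and 3 of the 4 entered the test through exosome libraries. The higher ones were miR-143-3p (log2 3.92, SE 0.83) and miR-145a-5p (4.18), which are made from 1 precursor in smooth muscle and fibroblasts, the miR-199a-3p/miR-199b-3p line (3.87, SE 0.51) and miR-10b-5p (8.72, SE 0.83). The lower ones were both arms of miR-140, a cartilage miRNA (-0.89 and -1.04), which were not called by library totals (-0.08 and -0.23). Without exosome replicate 2, exosome replicate 4 or lysate replicate 3, neither arm was called (-0.84 and -0.87, -0.83 and -0.99, -0.78 and -1.03), and 1 of them was lost without exosome replicate 1 (miR-140-3p, -0.42), exosome replicate 3 or lysate replicate 2 (miR-140-5p, -0.78 and -0.79). Levels of miR-143-3p were 2850, 3255, 2779 and 1531 CPM in exosomes and 220, 40.9 and 66.2 CPM in lysates. The groups were apart, and lysate replicate 1 stood above the other lysates. Without it the log2 fold changes were 4.66 for miR-143-3p and 5.53 for miR-145a-5p.

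MiR-122-5p, the main miRNA of hepatocytes and common in serum, stood at 8164, 11971, 9662 and 902 CPM in exosomes against 8.87, 209 and 193 CPM in lysates (log2 4.85, SE 1.45, edgeR adjusted p = 0.0110). Exosome replicate 4 and lysate replicate 1 were far below the rest of their groups, yet the groups did not overlap. Of the liver, gut and serum markers, 3 of 4 tested were higher (4 of 4 by library totals), against 29.3% and 37.3% of all lines. Of the 3, 2 entered the test through lysates and 1 through exosome libraries. Among the 3 was miR-192-5p of gut and liver (log2 1.27, SE 0.42), whose call was lost without exosome replicate 2 (1.02) or lysate replicate 1 (1.07). MiR-1a-3p of heart and skeletal muscle stood at 1056, 588, 246 and 3281 CPM against 1.56, 2.65 and 1.27 CPM (log2 8.64, SE 1.01, and 7.45 without exosome replicate 4). The 3 muscle markers tested and 2 of the 3 neural ones were called higher, but these 5 entered the test through exosome libraries, so the counts were largely fixed by the filter. The neural marker that entered through lysates, miR-128-3p, was not called (0.18), but was called higher without exosome replicate 1 (0.75). The part of other cells in these rises was not tested.

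Epithelial miRNAs were split. MiR-203-3p, a keratinocyte miRNA, stood at 47542, 12486, 653 and 9186 CPM in exosome replicates 1 to 4 and at 13.2, 20.9 and 20.1 CPM in lysates (log2 9.16, SE 1.99, edgeR adjusted p = 0.00152). All exosome libraries were above the lysates, but replicate 1 stood far above and replicate 3 far below the others. Without replicate 1 the log2 fold change was 8.12. The 3 members of the miR-200 family tested were not called (-0.57 to 0.16). These 3 entered the test through lysates. The 3 epithelial lines called higher, among them miR-203-3p, entered through exosome libraries, so their calls were largely fixed by the filter. The split between called and uncalled lines thus followed the route into the test. The 8 epithelial lines found took 9.41, 2.52, 0.147 and 1.89% of exosome reads against 0.0223 to 0.0271% of lysate reads. Without the 25 January exosome libraries of both treatments, 3 of 6 epithelial lines tested were again called higher. That fit used a filter of the same kind.

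The lines of miR-203-3p and miR-203b-5p, whose sequences pair with each other, held nearly equal counts in exosomes. Their ratio was 1.05, 1.02, 1.05 and 1.01 in exosome replicates 1 to 4 and 7.60, 3.84 and 5.05 in lysate replicates 1 to 3. Whether the counting used strand is not given in the sources used here, so reads of one could be counted for the other, and the lines are not independent. MiR-203b-5p had a log2 fold change of 11.33, and 10.34 without exosome replicate 1. Together they took 9.28% of the reads in exosome replicate 1 and 0.128% in replicate 3.

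**Figure D3:**
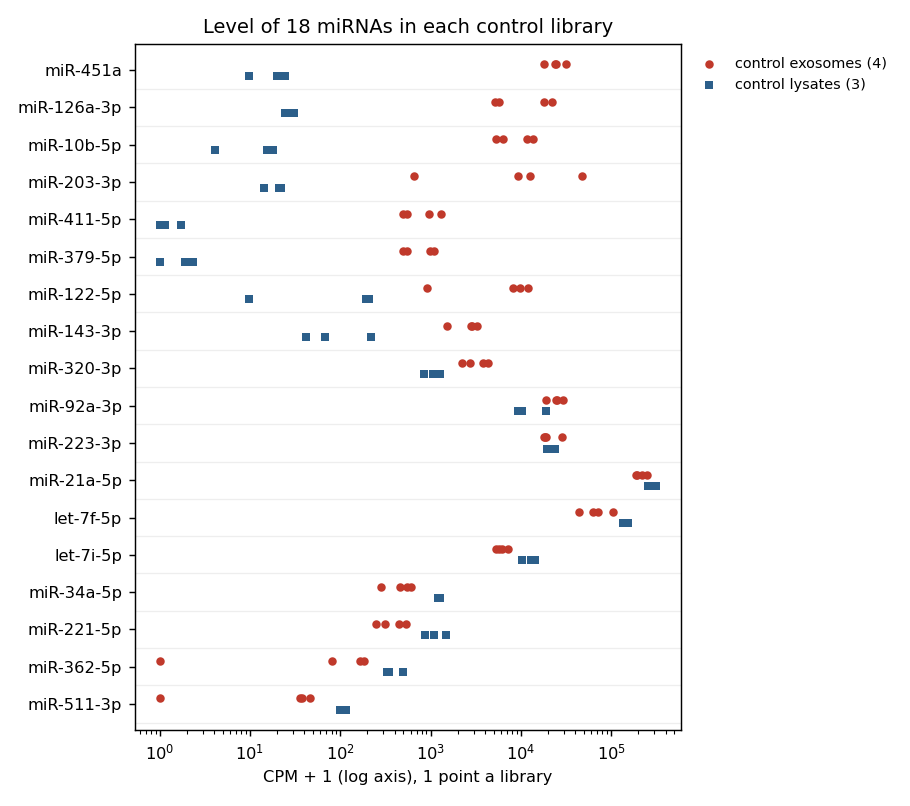
Level of 18 miRNAs (rows) in each of the 4 control exosome libraries (red circles) and 3 control lysates (blue squares), in CPM + 1 on a log axis. The upper rows, such as miR-451a (18154 to 31249 CPM against 8.83 to 23.6), are widely apart, the abundant macrophage miRNAs lie close together, and the lower rows, such as miR-34a-5p (282 to 601 against 1212 to 1279 CPM), lie to the left in exosomes.

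Most miRNAs of the Dlk1-Dio3 cluster that were tested were seen in exosomes and almost not in lysates. This imprinted region carries a large group of miRNA hairpins that are transcribed together from the maternal chromosome and are active in embryonic, neural and mesenchymal cells. Of 27 listed members found, 19 passed the filter, each through exosome libraries and none through lysates, so that they were called higher was largely fixed by it. Of 11 other tested lines from the stretch that the listed members span (chr12:109580243-109743784 in RefSeq, GRCm38.p6), 10 entered in the same way. The exception, miR-369-3p, had 1855 exosome and 1170 lysate counts and a log2 fold change of 5.24. Among the 11, miR-299a-5p and miR-299b-5p held the same counts in every library and are not independent lines. MiR-411-5p stood at 493, 1306, 950 and 547 CPM in exosomes and at 0, 0.147 and 0.726 CPM in lysates. MiR-379-5p stood at 493, 1085, 974.8 and 547 CPM against 0, 1.33 and 0.907 CPM. Both were apart without overlap. MiR-127-5p had 7 exosome counts, all in replicate 3. The log2 fold change of miR-411-5p was 10.44 over all libraries and 11.82 without lysate replicate 3, and that of miR-379-5p was 9.03 over all and 9.79 without lysate replicate 2.

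The listed members of the cluster were detected in lysates at trace levels that differed by date. The listed members together held 173, 495, 1545 and 183 counts in exosome replicates 1 to 4, which is 5003 to 9102 CPM. In control lysates they held 3, 183 and 114 counts (0.522, 26.9 and 20.7 CPM), and in IL4 lysates of the same dates 4, 194 and 46 counts (0.683, 49.2 and 8.95 CPM). These sums leave out the other lines of the stretch, among them miR-369-3p, which alone held 1170 counts over the control lysates. Lysates of 23 January held almost none of the listed members in either treatment. MiR-122-5p followed the same order over dates, with 8.87, 209 and 193 CPM in control and 2.90, 281 and 33.3 CPM in IL4 lysates. These values were seen before they were set side by side, and their part in the difference between compartments was not tested.

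**Figure D4:**
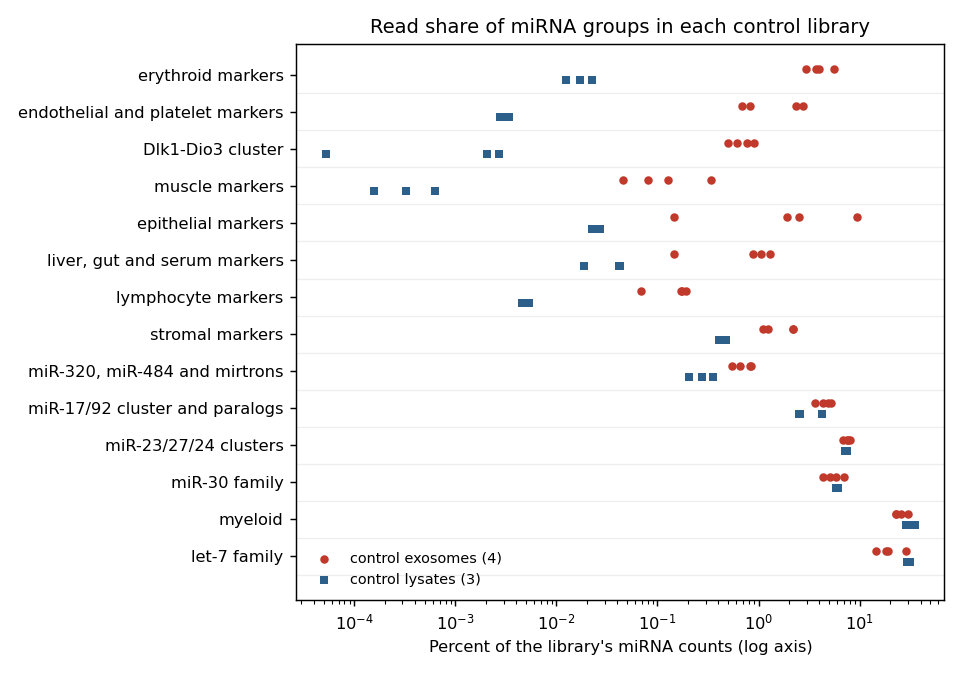
Percent of each control library's miRNA counts (x axis, log scale) that fell in each listed group of miRNAs (rows), with exosomes as red circles and lysates as blue squares. Groups named after other cells lie apart at the top, such as erythroid markers (2.97 to 5.54% against 0.0123 to 0.0222%), whereas the myeloid group (22.6 to 29.95% against 29.004 to 35.3%) overlaps at the bottom.

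Over the 25 groups of miRNAs examined, 11 had read shares that did not overlap with exosomes above and 1, let-7, with exosomes below. After adjustment over the 25, the smallest p was 0.153 (exact permutation test, two-sided), and 4 of the shares had the smallest unadjusted p that 7 libraries allow, 0.0286.

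Some miRNAs were found in exosomes but never in the 3 lysates, deep as these were. There were 21 lines with counts in at least 3 exosome libraries and 0 in the lysates, where a floor of 3 counts over the group is 0.166 CPM. MiR-205-5p, a miRNA of stratified epithelium, had 29, 10, 0 and 6 counts and a mean 342 ± 460 CPM (SD, n = 4), at least 2059-fold higher than that floor, and at least 698-fold without replicate 1. MiR-7032-3p had 4, 20, 20 and 11 counts (227 ± 127 CPM), at least 1369-fold higher. The neural miR-153-3p had 0, 9, 15 and 24 counts, at least 1350-fold higher, and at least 483-fold without replicate 4. MiR-5110 was at least 1179-fold and miR-219c-3p at least 1042-fold higher, and without replicate 1 at least 584-fold and 542-fold. Zeros in single exosome libraries, such as those of miR-205-5p and miR-153-3p, show how few counts lie behind such lines. The 21 hold both miR-299a-5p and miR-299b-5p, whose counts were the same in every library. With 1 lysate count, miR-411-3p of the Dlk1-Dio3 cluster gave a pooled ratio of 3119, with a 95% counting interval of 537 to 125395. The fold bounds against the floor cover counting error on the lysate side only, whereas the interval covers that of both compartments. In the other direction depth was the limit: 533 lines had lysate counts and 0 in exosomes, and the highest of them, miR-669o-5p, had a mean of 15.2 CPM in lysates against an exosome floor of 9.42 CPM. Lines of at least 100 CPM in lysates and 0 counts in exosomes were not found.

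Pairs of close relatives give ratios inside a library that no scaling can move. In 18 such pairs, chosen after values had been seen, the log2 ratio of counts (each + 0.5) was compared between compartments. MiR-10b-5p to miR-10a-5p, from the Hoxd and Hoxb clusters, had ratios of 1.83, 2.31, 2.23 and 0.645 in exosomes but 0.000587, 0.00208 and 0.00163 in lysates. The exosome ratio was thus of the order of 1 in each library and the lysate ratio far lower. The difference in log2 ratio was 10.28. MiR-100-5p to miR-99a-5p had ratios of 4.37, 0.298, 0.404 and 1.55 in exosomes and 0.00311, 0.00423 and 0.00302 in lysates (difference 8.12). In both pairs 1 member kept overlapping CPM ranges: miR-10a-5p ranged from 3413 to 8229 CPM in exosomes and from 5478 to 10403 CPM in lysates, and miR-99a-5p from 2815 to 4292 against 2905 to 4775 CPM.

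Among pairs abundant in both compartments the shifts were smaller. Let-7b-5p to let-7f-5p was 4.27 times as high in exosomes (ratios 0.155 to 0.386 against 0.0473 to 0.0574). The ratio of miR-30a-5p to miR-30d-5p was 3.64 times as high and that of miR-92a-3p to miR-17-5p 2.94 times. The ratio of miR-27a-3p to miR-27b-3p was 2.21 times as high and that of let-7a-5p to let-7f-5p 1.60 times. In these 7 pairs the groups did not overlap, each with p = 0.0286 in the exact permutation test (two-sided, the smallest possible) and 0.0735 after adjustment over the 18 pairs. MiR-181a-5p to miR-181b-5p did not overlap either (p = 0.0571, exact). The other 10 pairs overlapped, among them miR-221-3p to miR-222-3p, whose difference in log2 ratio was -0.12.

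**Figure D5:**
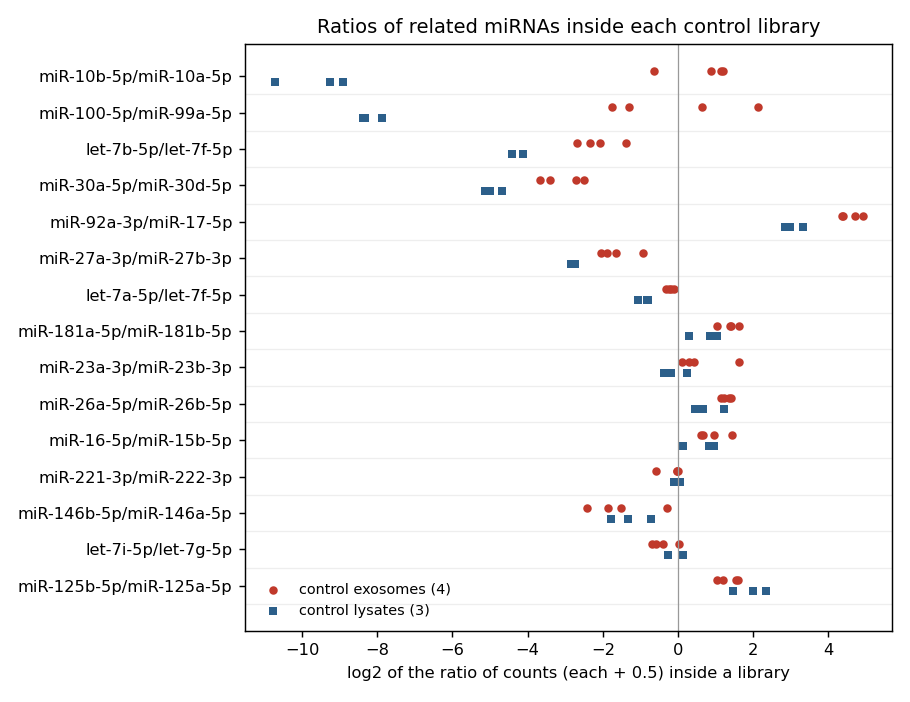
Log2 ratio of counts (x axis, each count + 0.5) between related miRNAs inside each control exosome library (red circles) and each control lysate (blue squares), 1 pair a row, for 15 of the 18 pairs. The rows of miR-10b-5p/miR-10a-5p (-0.63 to 1.21 against -10.73 to -8.91) and miR-100-5p/miR-99a-5p are separated by several log2 units, and those of the lower rows overlap.

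The most abundant miRNAs were common to both compartments, and several were lower in exosomes relative to the bulk of the lines. MiR-21a-5p, the leading miRNA of both, stood at 191927, 218017, 251205 and 189004 CPM in exosomes and at 252642, 315820 and 293633 CPM in lysates. The highest exosome library was just under the lowest lysate (log2 -1.26, SE 0.25, edgeR adjusted p = 0.000737). By library totals the value was -0.44 with an adjusted p of 0.0839. MiR-223-3p, a brake on granulocyte maturation, ranged from 17982 to 28400 CPM against 19458 to 23953 CPM and overlapped. Its log2 fold change of -0.89 (SE 0.19, edgeR adjusted p = 0.00124) was -0.09 by library totals (adjusted p = 0.814). Of 13 myeloid lines tested, 6 were lower and 0 higher by TMM (median log2 -0.82), against 21.6% and 29.3% of all lines, and by library totals 0 were lower and 1 higher, miR-142a-5p (0.92). The myeloid falls hence did not hold under both scalings. All 13 myeloid lines entered the test through lysates, where 73 of 212 lines were lower and 11 higher by TMM. MiR-92a-3p and miR-26a-5p, also among the 10 most abundant lines of exosomes, were not called by TMM (0.18 and -0.68).

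The let-7 family, which shares the seed GAGGUAG and restrains growth-promoting genes such as Lin28a and Hmga2, was lower in exosomes in most members. Of 9 tested members, 7 were called lower by TMM and 4 by library totals (let-7f-5p, let-7g-5p, let-7i-5p and miR-98-5p), against 21.6% and 4.73% of all lines. All 9 entered the test through lysates, as did 212 lines in all, of which 73 were lower by TMM and 16 by library totals. The call of let-7c-5p by TMM was lost without exosome replicate 1, 2 or 3 (-0.54, -0.72 and -0.55) and without lysate replicate 2 or 3 (-0.91 and -0.73). Let-7f-5p stood at 71084, 63552, 43457 and 105944 CPM in exosomes and at 146157, 152223 and 134499 CPM in lysates (log2 -1.79, SE 0.31). Let-7i-5p stood at 6158, 5719, 5306 and 7218 CPM against 13020, 14224 and 10258 CPM (log2 -1.82, SE 0.25). Neither overlapped. Let-7b-5p went the other way in CPM, with 13935 to 16757 against 7194 to 8346, and was called higher by library totals (1.003) but not by TMM (0.22). Without exosome replicate 1 let-7b-5p was called higher by TMM (0.51). The family took 19.2, 18.03, 14.6 and 28.7% of exosome reads and 31.6, 30.4 and 29.2% of lysate reads. Its members differ by single bases, so counts may be split between them.

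Lines called lower by both scalings numbered 16. The 4 let-7 members and miR-34a-5p, miR-362-5p, miR-221-5p, miR-103-3p and miR-301a-3p were those of them above 100 CPM in lysates. MiR-34a-5p, a target of p53, stood at 282, 552, 457 and 601 CPM in exosomes and at 1231, 1279 and 1212 CPM in lysates. Its log2 fold change was -2.19 (SE 0.27, edgeR adjusted p = 1.74e-05) and -1.38 by library totals. MiR-362-5p stood at 0, 184, 80.4 and 164 CPM against 497, 345 and 331 CPM (log2 -2.63, SE 0.47, -1.84 by library totals). MiR-221-5p, the less abundant arm of a miRNA that restrains the kinase inhibitor Cdkn1b, stood at 528, 313, 447 and 246 CPM against 1483, 1083 and 859 CPM (log2 -2.34, SE 0.37). None of these overlapped between groups.

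The other 7 lines lower by both scalings were under 100 CPM in lysates and held few exosome counts. MiR-27a-5p had 1 count over the 4 exosome libraries and 1390 over the lysates, a pooled ratio of 24.5 with a 95% counting interval of 4.39 to 969. In the miR-29 family, whose main arms restrain collagens and DNA methyltransferases, 4 of 7 lines were called lower by TMM. By library totals 2 of them, the less abundant arms miR-29a-5p and miR-29b-2-5p, were lower as well. Over all lines tested 21.6% and 4.73% were lower by the 2 scalings. All 7 entered the test through lysates, where 73 of 212 lines were lower by TMM and 16 by library totals. MiR-29b-2-5p had 2 exosome and 770 lysate counts, a ratio of 6.79 (interval 1.87 to 56.2), and its call was lost without exosome replicate 3.

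By TMM alone the largest falls among lines of at least 100 CPM also held miR-511-3p, miR-27b-5p, miR-324-5p, miR-669c-5p, miR-223-5p and miR-28c. MiR-511-3p, which lies in an intron of the macrophage mannose receptor gene Mrc1, stood at 35.2, 36.8, 45.2 and 0 CPM in exosomes and at 98.2, 112 and 114 CPM in lysates, where the zero is a library in which 1 count is worth 27.3 CPM. Its log2 fold change was -2.51 (SE 0.71, edgeR adjusted p = 0.00817), and -1.66 with an adjusted p of 0.0965 by library totals.

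Few miRNAs that were abundant in lysates rose. Beside the marker lines miR-122-5p, miR-143-3p, miR-192-5p and miR-486a-5p/miR-486b-5p, the 8 were miR-423-5p, miR-320-3p, let-7d-3p and miR-139-5p. MiR-423-5p stood at 3976, 4910, 3618 and 3472 CPM in exosomes and at 1187, 675 and 943 CPM in lysates (log2 1.34, SE 0.27, edgeR adjusted p = 0.000771). MiR-320-3p, cut without Drosha from a capped hairpin, stood at 2252, 3806, 4321 and 2734 CPM against 1280, 843 and 1071 CPM (log2 0.84, SE 0.22, edgeR adjusted p = 0.00534). Let-7d-3p stood at 4364, 5627, 6803 and 3828 CPM against 1893, 1484 and 1988 CPM (log2 0.73, SE 0.22, and 0.63 without lysate replicate 1, where its call was lost). MiR-139-5p (1.42) also lost its call without lysate replicate 1 (1.16). MiR-423-5p, miR-320-3p and let-7d-3p were apart without overlap and were higher by library totals too. Of the 5 tested lines of the miR-320, miR-484 and mirtron group, 1 was called higher by TMM and 3 by library totals, against 29.3% and 37.3% of all lines. Of the 5, 4 entered the test through lysates, where 11 of 212 lines were higher by TMM and 28 by library totals.

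Other families were mixed, and their counts moved with the scaling. Over all lines 29.3% were higher and 21.6% lower by TMM, and 37.3% and 4.73% by library totals. Most lines of these families entered the test through lysates, where 11 of 212 lines were higher and 73 lower by TMM. By library totals 28 of those 212 were higher and 16 lower. Counts of 3 of 13 or 2 of 7 lower by TMM are near these shares. In the miR-17/92 cluster and its paralogs, which drive proliferation, 3 of 13 tested lines were lower by TMM (miR-17-5p, miR-20a-5p and miR-93-5p) and 1, miR-363-3p, was higher (6.46, and 5.82 without exosome replicate 2), while by library totals 0 were lower and 2 higher. MiR-363-3p had 14 exosome and 5 lysate counts and entered the test through exosome libraries, so its call was largely fixed by the filter. In the miR-30 family 2 of 7 were lower by TMM and 4 of 7 higher by library totals. In the miR-23/27/24 clusters 4 of 11 were lower by TMM and 1 by library totals. The miR-15/16 family (3 of 5 lower), miR-181 family (2 of 4) and the miR-221 and miR-222 lines (3 of 4) had 0, 0 and 1 lower lines by library totals. Of 8 inflammatory lines tested, 2 were lower and 1 higher by TMM, and miR-155-5p, induced by inflammatory signals, was not called (282 to 820 against 157 to 518 CPM, log2 0.45, edgeR adjusted p = 0.434). Of 7 lines linked to cholesterol transport, 2 were lower and 1, the erythroid miR-144-3p, higher. Of 10 lines from hairpins clustered with miR-99 or miR-125 relatives, 1 was higher and 2 lower by TMM, and 3 higher and 0 lower by library totals. Of 2 lines of the miR-183, miR-96 and miR-182 cluster, 0 were called by TMM and 1 by library totals. Of 9 miRNAs common in circulation, 5 were higher and 3 lower (median log2 0.84), and these lines are members of the groups above. Of the 5, 2 entered the test through exosome libraries. So did the higher lines of the inflammatory (miR-9-5p), cholesterol (miR-144-3p) and miR-99 or miR-125 groups (miR-100-5p), and these calls were largely fixed too.

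The miRNAs that the study itself named showed small or uncalled differences between compartments of control cells. MiR-99a-5p (log2 -0.93) and miR-378a-3p (-0.89) were called lower by TMM and not by library totals (-0.13 and -0.12). Both lost the call without exosome replicate 1 (-0.58 and -0.64), and miR-378a-3p also without any other single library but exosome replicate 4. MiR-146b-5p (-0.58, edgeR adjusted p = 0.159) and miR-33-5p (1.63, adjusted p = 0.226) were not called. In miR-33-5p, an intronic miRNA of Srebf2 that limits cholesterol export, the exosome values of 105.6, 147, 5.02 and 0 CPM rest on 12 counts in all.

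The arms of a hairpin, like related pairs, can be compared inside a library. Of 69 hairpins with at least 10 counts of each arm in every control lysate and 100 pooled exosome counts, the arm that was minor in lysates had a higher pooled share in exosomes in 32 and a lower one in 37. The 5p arm of miR-221, for example, made up 1.88% in exosomes and 5.75% in lysates. Shares per library were set out for the 9 hairpins whose arms both had at least 10 counts in every control library, a condition that favours minor arms well counted in exosomes. For let-7d the 3p arm made up 27.2, 36.8, 51.1 and 17.9% of the reads of both arms in exosomes and 8.19, 8.34 and 10.9% in lysates. For miR-126a the 5p arm made up 24.1, 19.8, 23.2 and 30.8% against 14.8, 13.04 and 13.9%. These 2 hairpins did not overlap, each with p = 0.0571 (exact permutation test) and 0.257 after adjustment over these 9. The other 7 overlapped, from miR-142a (5p arm 47.3 ± 14.5% against 31.3 ± 4.91%) to miR-30e (3p arm 5.19 ± 1.16% against 5.01 ± 0.39%).

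Sequence features were described for 293 of the 338 tested lines that matched a RefSeq mature sequence. Of all 293, 44.4% were 5p arms by name, against 38.3% of the 81 called higher and 65.1% of the 63 called lower. The last base was U in 36.9% of all, 50.6% of the higher and 36.5% of the lower lines. Median GC content was 47.6%, 45.5% and 43.5%. Short motifs that have been linked to the sorting of miRNAs into vesicles were searched as exact letters in the mature strand. GGAG stood in 7.51% of all, 3.70% of the higher and 7.94% of the lower lines, and CCCU in 9.56%, 9.88% and 7.94%. GGCU stood in 11.9%, 8.64% and 14.3%, and UGCA in 16.7%, 19.8% and 15.9%. Among the 128 matched lines with at least 100 CPM in lysates, 54.7% were 5p arms. That share was 65.4% among the 52 of them called lower and 75% among the 4 called higher. Related lines share letters, so these shares are a description, and no match says only that the letters are not there.

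No 2 replicates of a group agreed within sampling noise, so none was taken for a library deposited more than once. Rank correlation between exosome libraries at equal depth ran from 0.80 to 0.86, between lysates from 0.88 to 0.90 and between an exosome library and a lysate from 0.56 to 0.70. Replicate 1 was high in miR-203 and in miR-100-5p, which stood at 12352, 1030, 1266 and 6671 CPM (log2 8.00, and 7.38 without replicate 1). Replicate 4, of the year before, was high in miR-184-3p (352, 993, 693 and 9268 CPM), miR-1a-3p and let-7f-5p and low in miR-122-5p. The log2 fold change of miR-184-3p was 9.52 over all libraries (lysates 0.869, 2.50 and 3.08 CPM) and 7.42 without exosome replicate 4.

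The comparison was repeated in the IL4 libraries, which share no library with the control comparison but share its dates. There, 30.2% of the lines tested were higher in exosomes and 18.9%, or 64 lines, lower. Of the 172 lines called in control libraries, 171 had the same sign with IL4, the exception being miR-223-5p (-1.65 in control and 0.04 with IL4). Of the 99 called higher, 90 were also called higher with IL4, and of the 73 called lower, 50 were also called lower. The same filter over all 14 libraries chose the lines of both comparisons. Of the 99, 88 entered only with the help of exosome libraries, so a rise with IL4 was in part fixed for them. The log2 fold change of miR-451a was 9.93 there.

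The difference between the 2 comparisons was then tested itself, and 0 lines were called (0%) by edgeR, with 14 at an unadjusted p under 0.05. DESeq2 also called 0, with 20 at an unadjusted p under 0.05. The lines of lowest p were miR-100-5p (control minus IL4 4.01, 95% confidence interval 1.47 to 6.54), miR-223-5p (-1.69, -2.81 to -0.57), miR-27a-5p (-3.49, -5.94 to -1.04), miR-182-5p (-2.02, -3.54 to -0.50) and miR-8095 (5.65, 1.31 to 9.998), each with an adjusted p of 0.857. Without a filter on low counts 3 lines were called: miR-100-5p (3.68), miR-203-3p (-2.05) and miR-203b-5p (-2.02). Intervals of this width leave differences of several-fold between treatments within reach for single lines.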

How the data were processed

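Small RNA was sequenced from 14 libraries, of which 4 control exosome and 3 control lysate libraries were compared. The authors deposited 1 table of raw counts per mature miRNA (1250 lines, 10 of them joining miRNAs of identical sequence). Adapters were trimmed with cutadapt and build mm10 was used, per the submitters' processing notes. For the aligner, the counting program and the use of strand, the entry is: not given in the sources used here.

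Counts were tested with edgeR 4.0.16 (R 4.3.3): TMM factors, filterByExpr and the quasi-likelihood F-test, in 1 fit of all 14 libraries with 4 groups, with Benjamini-Hochberg adjustment over the 338 lines tested and a threshold of 0.05. The IL4 comparison and the difference between treatments came from the same fit. Biological variation was 0.415 in control exosomes and 0.288 in control lysates (edgeR's coefficient). Shares, ratios and diversity were compared over libraries by an exact permutation test (two-sided, 35 arrangements, SciPy 1.17.1). Alternatives were library totals, TMMwsp factors, DESeq2 1.42.0, limma 3.58.1 (voom), other filters, thinning to 28417 counts and leaving out libraries. Libraries of equal replicate number and compartment share a date across treatments, and the date had a consensus correlation of 0.477 in limma. The fit was tested on simulated data. Intervals and floors cover counting error only, since reads carry no stated molecular identifiers.

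Named lines were the 12 largest rises and the 12 largest falls among called lines of at least 100 CPM in the higher compartment, the 10 most abundant of each compartment, miRNAs named by the study, list members, and lines seen in 1 compartment. The lines, lists and pairs were chosen with earlier results of these data known.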

Additional observations from a re-analysis of the deposited data

Results flagged for a closer look

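In 95 lines named here, the 4 control exosome libraries were searched for a library far from the others (gap to the nearest over the whole range above 0.829, which chance gives in about 1 of 20 groups), and 9 lines had one. Replicate 4 was high in miR-184-3p, a miRNA of epithelium and neural tissue, with 9268 CPM where the next library had 993 and the lowest 351.9 CPM. It was also high in let-7c-5p (39150 CPM, next 20710) and miR-200b-3p (164 CPM, next 75.37) and low in miR-150-5p (656.2 CPM). Replicate 3 was high in miR-223-3p with 28400 CPM, above 18900 CPM in the next and 17980 CPM in the lowest, and in miR-301a-3p (236.2 CPM, next 109.4). In miR-127-5p (35.17 CPM, replicate 3), miR-29a-5p (20.1 CPM, replicate 3) and miR-27a-5p (18.39 CPM, replicate 2) the other 3 libraries were at 0. Replicate 3 is the deepest exosome library and replicate 4 the earliest by date. The part of depth or date in these values was not tested.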

How the results depend on the processing

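Of the settings tried, none called a line in the opposite direction. The number of calls was 93 (51 higher, 42 lower) with at least 10 counts required in each compartment and 64 (43 and 21) with every library thinned to the smallest, both of which test fewer lines or use fewer counts. Library totals left 16 lower calls, and a fit of the 7 control libraries alone 43. Without a filter on low counts there were 248 calls, and 3 of the difference between treatments. Limma voom called 186 lines (80 lower), and with the date as a replicate block 183 (79 lower). The block changed no direction, and with the date as a fixed replicate block 0 differences between treatments were called (35 at an unadjusted p under 0.05). DESeq2 called 185 (81 lower). Leaving out a library in turn gave 142 to 172 calls, 51 to 66 of them lower. Without the 25 January exosome libraries, a choice made after seeing the data, there were 107 and 84.

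Without equal depth, the difference in lines detected turned to -470.9. When each library was left out, the difference was 83.0 to 96.2 lines at equal depth, -16.3 to -14.5 percentage points in the 10 most abundant lines, 24 to 26 lines for 90% of reads and 19.97 to 22.5 in effective number, where 6 libraries cannot give an exact permutation p under 0.0667. Of the 95 tested lines named here, 77 were called, and 26 of them lost their call by library totals, where miR-93-5p turned to 0.038. Thinning lost 16, and 21 lost their call when some single library was left out. MiR-127-5p ran from 0 (without exosome replicate 3, which holds all its counts) to 7.99, and 30 lines moved by over 1.5 times in such a fit. Of the 99 higher calls, 28 rest on under 30 exosome counts.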

Other observations

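MiR-24-2-5p was listed at 0 in control lysate replicate 2, a library of 6792079 counts, against 4947 and 4212 counts (860 and 764 CPM) in the other control lysates. The IL4 lysates held 842, 563 and 713 CPM and the control exosomes 493, 993, 1231 and 766 CPM. MiR-24-3p, a single line for the miR-24-1 and miR-24-2 hairpins, stood at 7353, 10780 and 9102 CPM in the control lysates, with no gap in replicate 2. Its level therefore does not speak to the miR-24-2 hairpin alone. The line was not called between compartments (log2 -0.02), a value that includes the 0. Without control lysate replicate 2 the log2 fold change was -0.61.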
